A study of Mus musculus with 29 samples.

Results

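The response of NaV1.5 atria to a high-fat diet was read across all expressed genes by setting 5 libraries of NaV1.5 mice on the high-fat diet (NaV1.5_HFD) against 4 libraries of NaV1.5 mice on regular diet (NaV1.5_RD). The 9 libraries were chosen by their labels alone, as all libraries of genotype NaV1.5 in batch 1 with no vehicle and no nicotinamide riboside, out of 29 in the series. All come from atria of male mice, and each is polyadenylated RNA of the tissue. The NaV1.5 mice are transgenic. The sources used here give neither the mutation nor the promoter behind that label, so the cell types that carry the transgene are not known from them. The NaV1.5_HFD mice were 5 weeks old when the high-fat diet began and ate it for 4 weeks, and the age of the NaV1.5_RD mice at collection is not stated separately. Control mice on both diets (Ctrl_HFD, 4 libraries, and Ctrl_RD, 4 libraries) entered the same statistical fit and are used below only to place the NaV1.5 values. Nothing in the labels ties a library to 1 mouse, so each p-value reflects sample-to-sample spread only, which may be technical.

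The heart burns mostly fatty acids, which enter the muscle cell through carriers such as CD36 and are shortened in the mitochondrion by beta-oxidation. A diet rich in fat supplies more of that fuel, and the nuclear receptors of the PPAR family are known to switch on many genes of its use. Chaperones of the HSP90 and HSP70 families fold proteins in the cytosol and are under the heat shock factor HSF1, while a separate set works in the endoplasmic reticulum (ER) under the unfolded protein response. The circadian clock, a loop of activators and repressors, runs in heart cells too and follows feeding times.

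One library stood apart from its group before any gene was tested. NaV1.5_RD replicate 4, whose title carries no number, lay at -36.75 on the first principal component, beyond the 5 NaV1.5_HFD libraries at -20.71 to 5.94, while the other NaV1.5_RD libraries lay at 19.86 to 30.32. Its 50 cytosolic ribosomal protein genes summed to 24023 CPM (counts scaled to a common library total), against 13173 to 13472 in the other NaV1.5_RD libraries and 13992 to 17585 in NaV1.5_HFD. Total counts were 17272602 to 22181019 in NaV1.5_HFD and 15318744 to 21343352 in NaV1.5_RD, and the mitochondrial genome gave 20.4 to 25.27% of these counts in NaV1.5_HFD and 18.82 to 20.62% in NaV1.5_RD. The slope of expression with the GC content of genes also moved with the diet, at -0.179 to 0.0264 log2 units per 10% GC in NaV1.5_HFD and -0.0474 to 0.176 in NaV1.5_RD. NaV1.5_HFD replicate 4, at the top of its group, and NaV1.5_RD replicate 4, at the bottom of its own, lay on the other group's side. Results for many genes and lists are therefore also given without NaV1.5_RD replicate 4 or with offsets for GC content and length. Not every change of a call is listed.

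**Figure D1:**
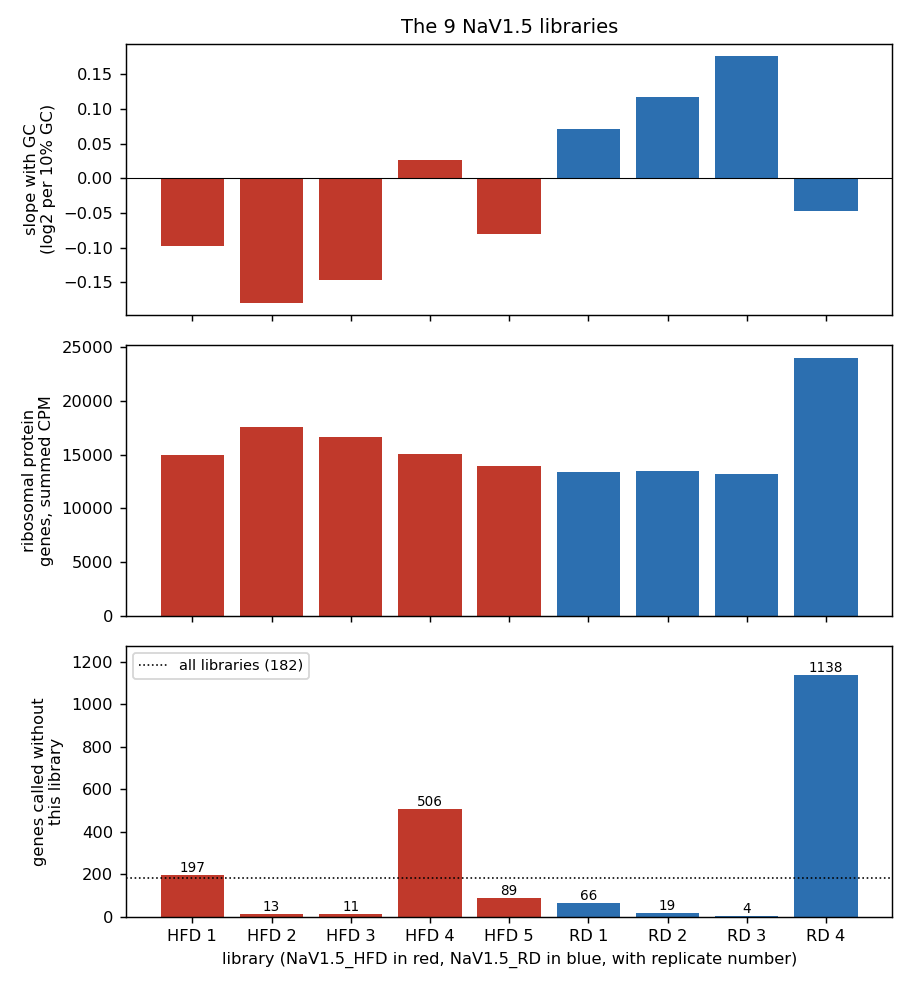
Slope of log2 expression with GC content (top), summed CPM of 50 cytosolic ribosomal protein genes (middle) and number of genes called when that library is left out (bottom) for the 5 NaV1.5_HFD libraries (red) and the 4 NaV1.5_RD libraries (blue). NaV1.5_RD replicate 4 has the highest ribosomal protein sum (24023 CPM), and the count of called genes runs from 4 without NaV1.5_RD replicate 3 to 1138 without NaV1.5_RD replicate 4, against 182 with all libraries.

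The diet changed 182 of 16168 tested genes in NaV1.5 atria (edgeR quasi-likelihood test, adjusted p below 0.05), which is 1.13% of those tested. Of these, 76 rose (0.47%) and 106 fell (0.656%). The changes were small. The median size was 0.461 log2 units, 136 of the 182 lay under 1.5-fold, 4 rose at least 2-fold and 10 fell at least 2-fold. The ranges of the libraries did not overlap between the diets for 167 of the 182, while this held for 5.91% of all tested genes, 2.65% higher and 3.26% lower in NaV1.5_HFD. A much larger set, 3063 genes (18.9%), had an unadjusted p below 0.05, 8.38% higher and 10.6% lower. Genes that rose had a median GC content of 43.4% and genes that fell one of 56.0%, against 49.7% over all tested genes. With offsets for GC content and length, 62 genes were called, 46 of them among the 182. Without NaV1.5_RD replicate 4 all 182 were called again among 1138. The count fell to 13, 11 and 89 without NaV1.5_HFD replicates 2, 3 and 5, to 66, 19 and 4 without NaV1.5_RD replicates 1, 2 and 3, and was 506 without NaV1.5_HFD replicate 4. Without NaV1.5_RD replicate 3, every called gene other than Ahsa2, Tmprss13, P4ha1 and Ciart lost its call. The leave-out of NaV1.5_RD replicate 4, given below for many lists, is the one that raised the count most.

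**Figure D2:**
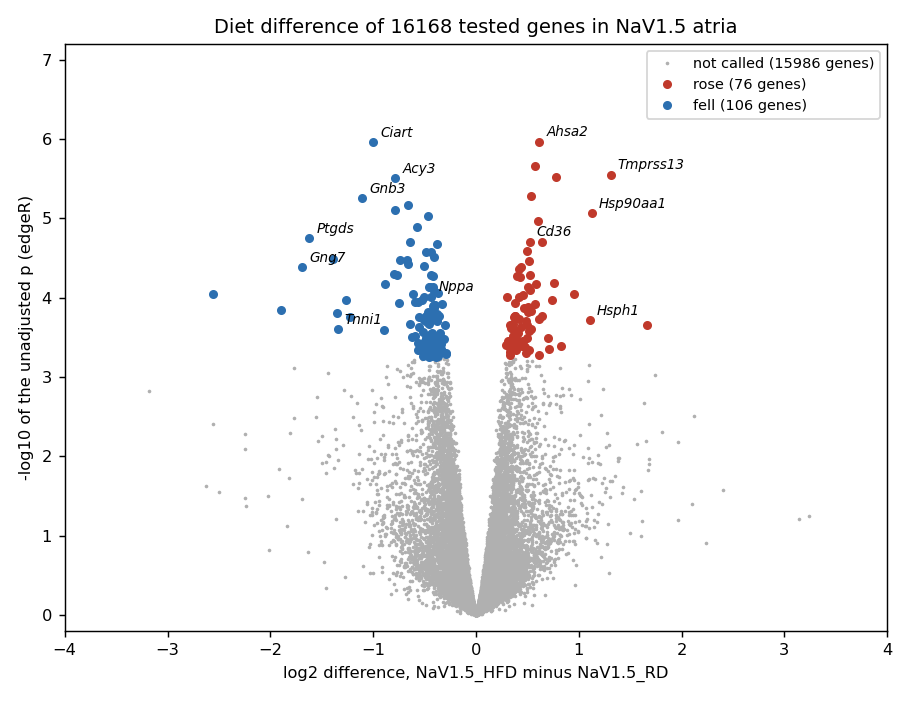
Each point is 1 of 16168 tested genes, with the log2 difference of NaV1.5_HFD minus NaV1.5_RD on the x axis and -log10 of the unadjusted edgeR p on the y axis; 76 genes that rose are red, 106 that fell are blue, and the rest are grey. Most called genes lie within 1 log2 unit of 0.

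Only 4 genes were called whichever of the 9 NaV1.5 libraries was left out, namely Ahsa2, Tmprss13 and P4ha1, which rose, and Ciart, which fell. Ahsa2, a relative of the HSP90 ATPase activator AHA1 (chromosome 11, 23487882 to 23498030, minus strand of GRCm38), had 24.7, 23.1, 24.4, 21.04 and 25.5 CPM in NaV1.5_HFD atria, against 15.3, 14.1, 15.6 and 16.98 CPM in NaV1.5_RD atria, a log2 difference of 0.62 (SE 0.09, adjusted p = 0.00833). Tmprss13, a membrane serine protease best known from skin (chromosome 9, 45319100 to 45347581, plus strand), had 4.15, 4.52, 5.70, 6.35 and 6.33 CPM in NaV1.5_HFD atria, against 2.51, 1.61, 2.38 and 2.20 CPM in NaV1.5_RD atria, a log2 difference of 1.31 (SE 0.20, adjusted p = 0.00833). It showed the largest rise among called genes with a mean of at least 1 CPM, at a low level. P4ha1, the catalytic subunit of collagen prolyl 4-hydroxylase (chromosome 10, 59323296 to 59373304, plus strand), had 88.005, 92.9, 107, 85.4 and 91.3 CPM in NaV1.5_HFD atria, against 58.4, 69.99, 66.96 and 53.3 CPM in NaV1.5_RD atria, a log2 difference of 0.58 (SE 0.09, adjusted p = 0.00833). Ciart, which represses the clock activators (chromosome 3, 95878503 to 95882251, minus strand), had 13.9, 16.8, 12.7, 17.3 and 13.96 CPM in NaV1.5_HFD atria, against 31.1, 36.9, 26.9 and 24.5 CPM in NaV1.5_RD atria, a log2 difference of -0.999 (SE 0.14, adjusted p = 0.00833). In each of the 4 genes the NaV1.5_HFD and NaV1.5_RD libraries fell into separate ranges, and each was also called with the GC and length offsets. A fit on the 9 NaV1.5 libraries alone called 5 genes, which were Ahsa2, Tmprss13, Ciart, Lad1 and Mdk; P4ha1 had an adjusted p of 0.0537 there.

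Several cytosolic chaperones of the HSP90 system rose. Of 11 members of the HSP90 list, 4 rose and 0 fell, where 0.47% of all tested genes rose, with a median log2 difference of 0.35 against -0.01 over all tested genes. This list and those below were chosen with earlier results of these data known, so such shares are description and no test. Over all lists 4.33% of the tested members were called, against 1.13% of all tested genes. Of the 11 HSP90 members 3 had a negative log2 difference. The summed level of the 11 overlapped between the diets, at 1892 to 2244 CPM in NaV1.5_HFD libraries and 1901 to 2178 CPM in NaV1.5_RD libraries. The HSP90 machine holds near-folded clients such as steroid receptors and kinases, and its cochaperones set the pace of its ATPase cycle or bring clients in. Hsp90aa1, the stress-inducible HSP90 gene, had 90.1, 123, 154, 74.9 and 104 CPM in NaV1.5_HFD atria, against 46.6, 44.5, 49.5 and 59.7 CPM in NaV1.5_RD atria, a log2 difference of 1.13 (SE 0.18, adjusted p = 0.0124). The lowest NaV1.5_HFD library still lay above the highest NaV1.5_RD library, and the spread among the NaV1.5_HFD libraries was the wider. Chordc1, whose product binds HSP90, had 39.4, 44.3, 55.6, 37.9 and 44.2 CPM in NaV1.5_HFD atria, against 22.7, 22.9, 25.4 and 32.4 CPM in NaV1.5_RD atria, a log2 difference of 0.78 (SE 0.12, adjusted p = 0.00833). The cyclophilin Ppid, which binds the tail of HSP90, had 37.1, 45.97, 45.3, 40.5 and 48.5 CPM in NaV1.5_HFD atria, against 32.1, 31.3, 33.3 and 36.6 CPM in NaV1.5_RD atria, a log2 difference of 0.38 (SE 0.08, adjusted p = 0.0317). Ahsa1, which encodes AHA1 itself, and Stip1, which links HSP70 to HSP90, lay just outside the threshold with log2 differences of 0.35 (SE 0.08, adjusted p = 0.0504) and 0.36 (SE 0.10, adjusted p = 0.0649). Without NaV1.5_RD replicate 4 both were called, giving 6 of 11. Without NaV1.5_RD replicate 3, Ahsa2 was the only called member. With the GC and length offsets 3 of the 4 were called again, and Ppid, at a log2 difference of 0.24, was not (adjusted p = 0.157). Hsp90aa1 has pseudogenes of near-identical sequence, so its count is uncertain.

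A smaller share of the HSP70 side was called. Of 21 members of the HSP70, HSP40, HSP110 and chaperonin list, 3 rose and 0 fell (median 0.13). Hsph1, an HSP110 nucleotide exchange factor for HSP70, had 69.7, 61.4, 95.2, 40.1 and 56.5 CPM in NaV1.5_HFD atria, against 26.5, 30.6, 41.1 and 21.5 CPM in NaV1.5_RD atria, a log2 difference of 1.11 (SE 0.23, adjusted p = 0.0318). The ranges overlapped by NaV1.5_HFD replicate 4 and NaV1.5_RD replicate 3. Hspa4l, another exchange factor of the same family, had 62.7, 61.4, 62.2, 48.5 and 60.1 CPM in NaV1.5_HFD atria, against 42.5, 44.5, 43.3 and 47.4 CPM in NaV1.5_RD atria, a log2 difference of 0.41 (SE 0.10, adjusted p = 0.0416). Hspd1, the mitochondrial chaperonin HSP60, had 200.4, 192, 205, 163 and 203 CPM in NaV1.5_HFD atria, against 152, 152, 154 and 155 CPM in NaV1.5_RD atria, a log2 difference of 0.33 (SE 0.08, adjusted p = 0.0444). The 4 NaV1.5_RD libraries of Hspd1 lay within a narrow band, all below the NaV1.5_HFD libraries. None of the 3 was called with the GC and length offsets (adjusted p = 0.0711, 0.171 and 0.0795 in that order, with Hspa4l at a log2 difference of 0.24), while 10 members were called without NaV1.5_RD replicate 4. The HSP40 gene Dnaja4, outside the list and named after its values were seen, rose by 0.35 log2 units (SE 0.08, adjusted p = 0.0331). The classical inducible HSP70 genes stayed low. Hspa1a had 1.04 to 2.75 CPM in NaV1.5_HFD atria and 0.833 to 2.15 CPM in NaV1.5_RD atria, with a log2 difference of -0.06 (SE 0.33, adjusted p = 0.95), and Hspa1b had 0.805 to 1.96 CPM in NaV1.5_HFD atria and 1.302 to 2.09 CPM in NaV1.5_RD atria, with one of -0.29 (SE 0.26, adjusted p = 0.592). This pair of genes is near-identical in sequence, so reads that fit both were left out by the authors' counting and the values are uncertain. Of 7 small heat shock proteins 0 were called with edgeR, 1 with DESeq2 and 1 with limma-voom, while 1 had an unadjusted edgeR p below 0.05. Of 4 heat shock factors and regulators 0 were called with edgeR, 0 with DESeq2 and 0 with limma-voom, while 0 had an unadjusted edgeR p below 0.05.

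The promoters of the chaperone genes that rose were searched for the heat shock element, the landing site of HSF1, spelled as GAA, any 2 bases, TTC, any 2 bases and GAA, on both strands. RefSeq promoter windows of 250 bases before to 50 after a start site were at hand for 5 of the 7 genes. The element stood in 3 of the 5, Chordc1, Hsph1 and Hspd1, and not in the windows of Ahsa2 and Hspa4l. A gene was counted here if any of its windows held the element. Hspd1 has a further window, chr1:55088194-55088493, that did not. Of all 32851 windows 0.603% held it, and of 11608 tested genes with a window 0.569% did. The stretches below run from 250 bases before to 30 after the start site on GRCm38.p6, 5′ to 3′ on the strand of the gene, and the capitals mark the element, overlapping matches joined. They are shown because they carry the motif beside the rise of the gene; a match is not evidence of binding.
Chordc1: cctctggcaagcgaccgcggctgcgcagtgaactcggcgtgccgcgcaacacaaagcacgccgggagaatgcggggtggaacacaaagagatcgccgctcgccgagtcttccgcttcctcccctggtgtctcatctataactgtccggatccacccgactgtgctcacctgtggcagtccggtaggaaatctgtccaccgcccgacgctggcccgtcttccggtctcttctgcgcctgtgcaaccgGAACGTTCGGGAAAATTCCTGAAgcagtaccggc
Hsph1: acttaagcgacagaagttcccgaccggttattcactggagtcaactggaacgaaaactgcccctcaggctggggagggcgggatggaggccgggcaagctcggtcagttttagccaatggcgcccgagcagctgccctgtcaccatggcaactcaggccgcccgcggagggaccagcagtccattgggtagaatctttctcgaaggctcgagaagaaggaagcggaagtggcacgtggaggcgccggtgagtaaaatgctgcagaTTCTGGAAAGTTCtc
Hspd1: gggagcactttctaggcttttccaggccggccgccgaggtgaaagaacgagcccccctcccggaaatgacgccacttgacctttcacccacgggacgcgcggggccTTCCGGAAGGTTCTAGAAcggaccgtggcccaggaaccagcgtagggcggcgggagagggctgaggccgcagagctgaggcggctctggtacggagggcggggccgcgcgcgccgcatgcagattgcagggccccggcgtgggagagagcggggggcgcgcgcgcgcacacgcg
The Chordc1 stretch is chr9:18292017-18292296, plus strand; its 3 overlapping matches begin 4 bases before, 1 base after and 6 bases after the start site. The Hsph1 stretch is chr5:149636286-149636565, minus strand, with 1 match beginning 15 bases after the start, and the Hspd1 stretch is chr1:55087903-55088182, minus strand, with 2 overlapping matches that begin 144 and 139 bases before it.

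Some folding genes of the ER rose as well. Of 22 ER chaperone and folding genes 4 rose and 0 fell (median 0.22). Hsp90b1, the HSP90 of the ER known as GRP94, had 391, 441, 506, 401 and 419.98 CPM in NaV1.5_HFD atria, against 302, 276, 300.5 and 337 CPM in NaV1.5_RD atria, a log2 difference of 0.51 (SE 0.10, adjusted p = 0.0258). Dnajc3, which helps the ER HSP70 and restrains the kinase PERK, had 72.9, 74.005, 89.2, 59.4 and 71.5 CPM in NaV1.5_HFD atria, against 55.4, 46.1, 49.5 and 58.4 CPM in NaV1.5_RD atria, a log2 difference of 0.49 (SE 0.11, adjusted p = 0.032). For both genes the diets formed separate ranges. The disulfide isomerases Pdia3 and Pdia4, which form and shuffle disulfide bonds, rose by 0.37 log2 units (SE 0.08, adjusted p = 0.036) and 0.48 log2 units (SE 0.12, adjusted p = 0.0468), the values of Pdia4 overlapping by NaV1.5_HFD replicate 5 and NaV1.5_RD replicate 1. Hspa5, the ER HSP70 also called BiP, was at 504 ± 51.5 CPM in NaV1.5_HFD atria (SD, n = 5) and 401 ± 33.2 CPM in NaV1.5_RD atria (n = 4), which differ by 0.33 (SE 0.09, adjusted p = 0.0694) on the log2 scale. It was called without NaV1.5_RD replicate 4 (adjusted p = 0.0484), when 7 members passed. With GC and length offsets Dnajc3, Pdia3 and Pdia4 were not called (adjusted p = 0.0711, 0.0649 and 0.0787), while Hsp90b1 was called again, as was Xbp1, the transcription factor of the unfolded protein response (adjusted p = 0.0437 there and 0.0894 without the offsets). Of the 18 tested genes of the integrated stress response 0 were called with edgeR, 1 with DESeq2 and 3 with limma-voom, while 5 had an unadjusted edgeR p below 0.05.

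The ER stress element is bound by NF-Y and ATF6 and spelled as CCAAT, any 9 bases and CCACG. It was found in 0.119% of all windows and in 0.172% of the 11608 tested genes with a window. Of the 4 ER genes that rose 2 held it, Hsp90b1 and Dnajc3. The windows of Pdia3 and Pdia4 did not hold these letters. Both stretches are given in the same frame as above, with the element in capitals.
Hsp90b1: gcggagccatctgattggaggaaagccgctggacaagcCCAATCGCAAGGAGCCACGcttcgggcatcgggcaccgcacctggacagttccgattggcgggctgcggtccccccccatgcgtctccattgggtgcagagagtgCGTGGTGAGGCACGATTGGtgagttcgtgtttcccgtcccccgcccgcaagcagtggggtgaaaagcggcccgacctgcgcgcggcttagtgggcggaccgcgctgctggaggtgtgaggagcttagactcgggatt
Dnajc3: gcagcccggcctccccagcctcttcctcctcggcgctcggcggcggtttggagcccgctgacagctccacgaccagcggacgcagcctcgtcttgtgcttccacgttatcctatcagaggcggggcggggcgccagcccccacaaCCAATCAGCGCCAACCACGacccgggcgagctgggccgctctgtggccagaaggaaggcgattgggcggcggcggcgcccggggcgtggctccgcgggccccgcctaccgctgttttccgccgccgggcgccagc
The Hsp90b1 stretch is chr10:86705415-86705694, minus strand, with matches beginning 212 and 107 bases before the start site, the nearer of them on the opposite strand. The Dnajc3 stretch is chr14:118937682-118937961, plus strand, with a match beginning 105 bases before it.

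A pair of collagen maturation genes rose beside the ER chaperones, while the collagen genes did not pass the test. Of 12 collagen hydroxylase and chaperone genes 2 rose and 0 fell, P4ha1 (above) and Serpinh1, the collagen chaperone HSP47. The list as a whole did not lean upward, with 5 members positive, 7 negative and a median of -0.03. That median was -0.09 without NaV1.5_RD replicate 4 and 0.06 with the GC and length offsets. Serpinh1 had 351, 431, 464, 433 and 418 CPM in NaV1.5_HFD atria, against 300.4, 293, 343 and 286 CPM in NaV1.5_RD atria, a log2 difference of 0.46 (SE 0.09, adjusted p = 0.0279), and it was called with the GC and length offsets too. Plod2, a lysyl hydroxylase of collagen, was at 32.1 ± 0.578 CPM in NaV1.5_HFD atria (SD, n = 5) and 26.1 ± 2.14 CPM in NaV1.5_RD atria (n = 4), with a log2 difference of 0.29 (SE 0.07, adjusted p = 0.0588) and no overlap between the diets. Of 32 tested matrix and fibrosis genes 0 were called with edgeR, 0 with DESeq2 and 5 with limma-voom, while 8 had an unadjusted edgeR p below 0.05, with a median of -0.15, and the collagen I gene Col1a1 had a log2 difference of -0.61 (SE 0.27, adjusted p = 0.244). Without NaV1.5_RD replicate 4, 5 of the 32 fell. Outside the lists, 3 secreted proteins of the matrix or its signals fell; they are named here with their values known. The fibulin Fbln1 fell by 0.47 log2 units (SE 0.11, adjusted p = 0.0464), the anti-angiogenic serpin Serpinf1 by 0.53 log2 units (SE 0.12, adjusted p = 0.0444) and the Wnt antagonist Sfrp1 by 0.43 log2 units (SE 0.10, adjusted p = 0.0374). None of these 3 was called with the GC and length offsets (adjusted p = 0.125 for Fbln1, 0.125 for Serpinf1 and 0.0649 for Sfrp1). The 8 fibroblast markers, 0 of which were called, summed to 2076 to 3132 CPM in NaV1.5_HFD libraries and 2259 to 2909.6 CPM in NaV1.5_RD libraries.

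P4ha1 is also a target of the hypoxia-inducible factors, and 2 of 16 hypoxia targets rose. The other was Egln3, the oxygen-sensing prolyl hydroxylase PHD3, with 32.6, 32.2, 31.6, 46.9 and 45.5 CPM in NaV1.5_HFD atria, against 20.6, 23.7, 23.9 and 28.5 CPM in NaV1.5_RD atria, a log2 difference of 0.65 (SE 0.14, adjusted p = 0.0317). All 5 NaV1.5_HFD libraries lay above the 4 NaV1.5_RD libraries. The other 14 targets were not called. The ER-membrane hydroxylase P4htm, named after its values were seen, fell by 0.46 log2 units (SE 0.10, adjusted p = 0.0318), and was not called with the GC and length offsets (log2 difference -0.30, adjusted p = 0.101).

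**Figure D3:**
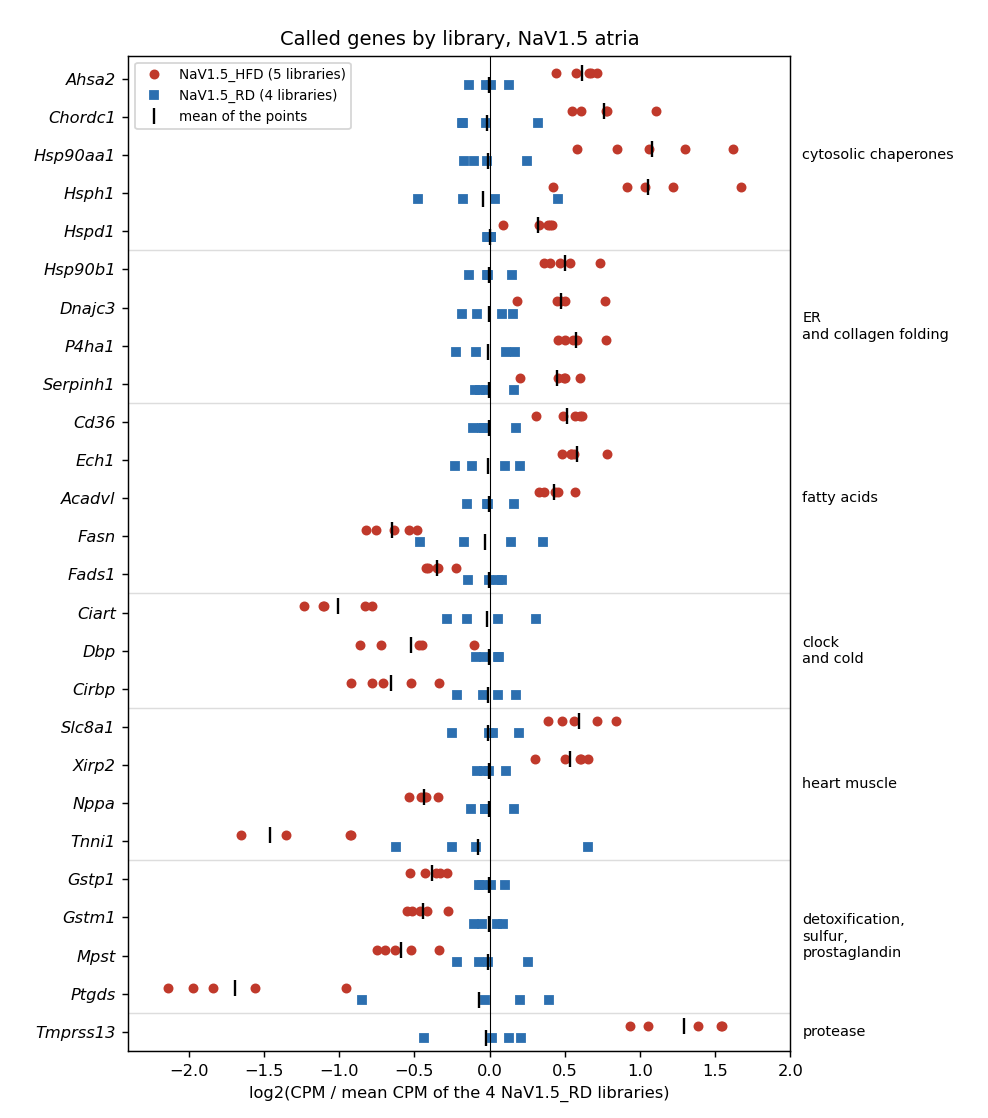
CPM of each library divided by the mean of the 4 NaV1.5_RD libraries, on a log2 scale, for 26 called genes; circles are the 5 NaV1.5_HFD libraries, squares the 4 NaV1.5_RD libraries, and ticks their means on the log2 scale. Circles and squares occupy separate ranges in each gene drawn other than Hsph1.

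Cirbp, an RNA-binding protein that cold induces and heat lowers, fell. It had 72.3, 55.7, 48.2, 63.5 and 52.97 CPM in NaV1.5_HFD atria, against 103, 78.4, 88.3 and 94.8 CPM in NaV1.5_RD atria, a log2 difference of -0.64 (SE 0.11, adjusted p = 0.0178), with no overlap. Rbm3, the other member of this pair of cold-inducible genes, was not called, at 47.6 to 59.9 CPM in NaV1.5_HFD atria and 46.1 to 92.9 CPM in NaV1.5_RD atria and a log2 difference of -0.23 (SE 0.15, adjusted p = 0.447). NaV1.5_RD replicate 4 held the highest Rbm3 value.

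Several genes of fatty acid uptake and mitochondrial oxidation rose, and a pair of genes of fatty acid synthesis fell. Cd36, the main fatty acid carrier of the heart muscle cell membrane, had 819, 884, 895, 725 and 867 CPM in NaV1.5_HFD atria, against 540.03, 564, 570.3 and 661 CPM in NaV1.5_RD atria, a log2 difference of 0.52 (SE 0.09, adjusted p = 0.0178). With the GC and length offsets it was called again, at a log2 difference of 0.35. It was the 1 gene called among 13 of uptake and activation (median 0.17); the cytosolic carrier Fabp3 was at 959 ± 58.3 CPM in NaV1.5_HFD atria (SD, n = 5) and 768 ± 119 CPM in NaV1.5_RD atria (n = 4) and a log2 difference of 0.32 (SE 0.12, adjusted p = 0.154). Of 15 beta-oxidation enzymes 4 rose and 0 fell (median 0.22). Acadvl, which takes the first step on very long chains, had 289.9, 264, 245, 251 and 268 CPM in NaV1.5_HFD atria, against 193, 176, 194 and 219 CPM in NaV1.5_RD atria, a log2 difference of 0.43 (SE 0.08, adjusted p = 0.0225). Decr1, which clears the double bonds of unsaturated chains, had 335, 319, 295, 323 and 346 CPM in NaV1.5_HFD atria, against 218, 251, 217 and 281 CPM in NaV1.5_RD atria, a log2 difference of 0.42 (SE 0.09, adjusted p = 0.0318). All NaV1.5_HFD values of both genes stood above all NaV1.5_RD values. Etfdh, which hands the electrons to ubiquinone, rose by 0.38 log2 units (SE 0.08, adjusted p = 0.0294), and Hadhb, the thiolase subunit of the trifunctional protein, by 0.41 log2 units (SE 0.09, adjusted p = 0.0374). Its partner subunit Hadha had a log2 difference of 0.30 (SE 0.08, adjusted p = 0.0707). With the GC and length offsets Acadvl alone of the 15 was called, while Decr1 (adjusted p = 0.0817), Etfdh (0.122) and Hadhb (0.183, at a log2 difference of 0.25) were not, and without NaV1.5_RD replicate 4, 6 were.

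Among called genes outside that list were further enzymes of lipid breakdown. Ech1, an isomerase that prepares unsaturated fatty acids for oxidation, had 1335, 1133, 1085, 1149 and 1133 CPM in NaV1.5_HFD atria, against 662, 837, 718 and 895 CPM in NaV1.5_RD atria, a log2 difference of 0.59 (SE 0.12, adjusted p = 0.0258). Hsdl2, a dehydrogenase-like protein of peroxisomes, rose by 0.42 log2 units (SE 0.08, adjusted p = 0.0217). The first lipase of stored triglyceride went the other way: Pnpla2, known as ATGL and named after its values were seen, had 344, 233, 245, 323 and 273 CPM in NaV1.5_HFD atria, against 416, 458, 553 and 324 CPM in NaV1.5_RD atria, a log2 difference of -0.63 (SE 0.14, adjusted p = 0.0396). The ranges overlapped by NaV1.5_HFD replicate 1 and NaV1.5_RD replicate 4. Ech1 was called again with the GC and length offsets, while Hsdl2 (adjusted p = 0.0649) and Pnpla2 (0.0983) were not. Of 6 genes of fatty acid import into the mitochondrion 0 were called with edgeR, 1 with DESeq2 and 2 with limma-voom, while 2 had an unadjusted edgeR p below 0.05. Of 8 genes of peroxisomal oxidation 0 were called with edgeR, 0 with DESeq2 and 1 with limma-voom, while 1 had an unadjusted edgeR p below 0.05.

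The PPAR target list of the heart held no called gene. Called genes of fatty acid use named above, such as Cd36, Acadvl and Ech1, are not in this list, so its count does not cover them. Of 12 tested targets 0 were called with edgeR, 1 with DESeq2 and 2 with limma-voom, while 4 had an unadjusted edgeR p below 0.05, and their median was -0.11. Angptl4, an inhibitor of lipoprotein lipase, had 34.8, 34.97, 41.9, 55.1 and 45.5 CPM in NaV1.5_HFD atria, against 22.6, 13.5, 27.5 and 15.8 CPM in NaV1.5_RD atria, a log2 difference of 1.09 (SE 0.35, adjusted p = 0.12), and the lipid droplet gene Plin2 was at 45.6 ± 2.21 CPM in NaV1.5_HFD atria (SD, n = 5) and 36.4 ± 2.77 CPM in NaV1.5_RD atria (n = 4), differing by 0.33 (SE 0.11, adjusted p = 0.12) on the log2 scale. Neither gene's ranges overlapped, yet neither passed. The glucose-sparing kinase Pdk4 had 396 to 635 CPM in NaV1.5_HFD atria and 197 to 529 CPM in NaV1.5_RD atria and a log2 difference of 0.45 (SE 0.25, adjusted p = 0.34). Promoter windows were at hand for 4 of the 5 called genes of uptake and beta-oxidation. They held 0 copies of the PPAR direct repeat, AGGTCA on either side of any base, which 0.0396% of all windows hold. A repeat this rare could hardly be met in so few windows, so no conclusion is drawn from its absence.

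Of 20 fatty acid synthesis and desaturation genes 2 fell and 0 rose (median -0.19). Fasn, the fatty acid synthase, had 21.8, 20.3, 17.8, 22.6 and 18.7 CPM in NaV1.5_HFD atria, against 28.1, 40.4, 34.8 and 22.9 CPM in NaV1.5_RD atria, a log2 difference of -0.64 (SE 0.14, adjusted p = 0.0331). Fads1, the delta-5 desaturase of polyunsaturated chains, had 27.3, 28.5, 28.4, 31.1 and 27.01 CPM in NaV1.5_HFD atria, against 37.6, 38.4, 36.1 and 32.9 CPM in NaV1.5_RD atria, a log2 difference of -0.35 (SE 0.08, adjusted p = 0.0374). In both genes the NaV1.5_HFD libraries lay below the NaV1.5_RD libraries, by a small margin between NaV1.5_HFD replicate 4 and NaV1.5_RD replicate 4. Acaca, which makes the malonyl-CoA that Fasn uses, had a log2 difference of -0.42 (SE 0.13, adjusted p = 0.0894). With the GC and length offsets neither Fasn (adjusted p = 0.0651) nor Fads1 (0.0711) was called, and without NaV1.5_RD replicate 4, 4 of the 20 fell. Of 20 cholesterol synthesis genes 0 were called with edgeR, 1 with DESeq2 and 3 with limma-voom, while 6 had an unadjusted edgeR p below 0.05. Of 20 genes of glucose use and insulin signalling 0 were called with edgeR, 1 with DESeq2 and 4 with limma-voom, while 7 had an unadjusted edgeR p below 0.05. White fat can carry Cd36, Fasn and Pnpla2, so its markers are given here. The 12 white fat markers, 9 of them tested and 0 called, summed to 49.5 to 81.4 CPM in NaV1.5_HFD libraries and 53.9 to 107 CPM in NaV1.5_RD libraries. The median log2 difference of the 9 tested was -2.24, with 8 of 9 negative, and it was -2.60 without NaV1.5_RD replicate 4 and -1.41 in control atria. Of the 9, 7 had an unadjusted edgeR p below 0.05, all lower in NaV1.5_HFD, and 2 fell without NaV1.5_RD replicate 4. Adipoq, the adipocyte hormone, had 0 to 1.42 CPM in NaV1.5_HFD atria and 0.0449 to 4.35 CPM in NaV1.5_RD atria, and its level was 0 in NaV1.5_HFD replicate 1. Lep was 0 in 2 NaV1.5_HFD and 2 NaV1.5_RD libraries, and the brown fat gene Ucp1 in 3 NaV1.5_HFD and 2 NaV1.5_RD libraries. What part fat tissue has in the fatty acid results was not tested.

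**Figure D4:**
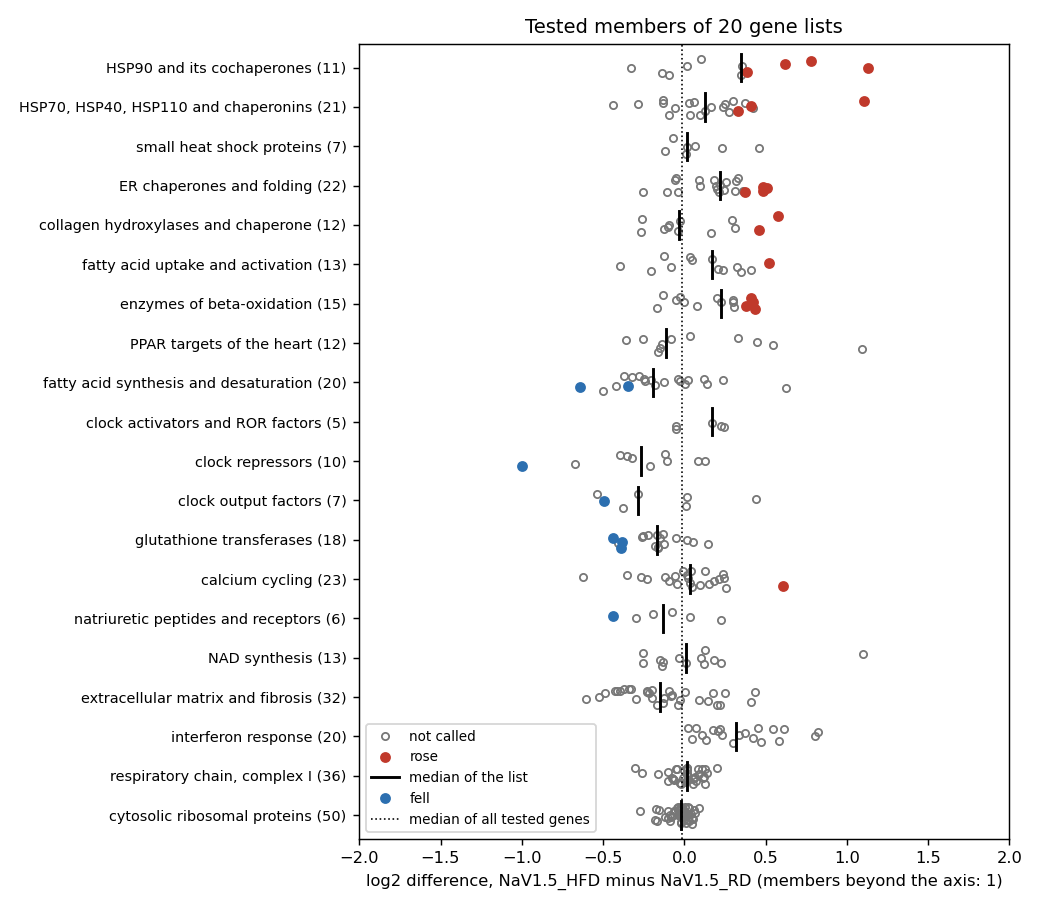
Log2 difference of NaV1.5_HFD minus NaV1.5_RD (x axis) for the tested members of 20 gene lists (rows, number tested in brackets), with called members filled (red rose, blue fell), the rest open, a bar at each list's median and a dotted line at the median of all tested genes (-0.01). Called members stand at the right in the chaperone and beta-oxidation lists and at the left in the synthesis, clock and glutathione transferase lists.

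In the circadian clock, 1 repressor and 1 output factor fell. Of 10 clock repressors 1 fell, Ciart, and 0 rose (median -0.27). Of 7 output factors 1 fell, Dbp, and 0 rose (median -0.29), and of 5 activators and ROR factors 0 were called with edgeR, 0 with DESeq2 and 0 with limma-voom, while 0 had an unadjusted edgeR p below 0.05, with a median of 0.17. Dbp, a transcription factor that carries clock time to metabolic genes, had 84.01, 101, 76.1, 129 and 99.8 CPM in NaV1.5_HFD atria, against 144, 144, 135 and 129.96 CPM in NaV1.5_RD atria, a log2 difference of -0.50 (SE 0.11, adjusted p = 0.0409); the top NaV1.5_HFD value, replicate 4, came close to the lowest NaV1.5_RD value. Per1, a core repressor, was at 58.9 ± 10.8 CPM in NaV1.5_HFD atria (SD, n = 5) and 94.05 ± 14.3 CPM in NaV1.5_RD atria (n = 4), without overlap and with a log2 difference of -0.67 (SE 0.17, adjusted p = 0.0631). The deubiquitinase gene Usp2, a further output, had a log2 difference of -0.54 (SE 0.15, adjusted p = 0.0728) and was called without NaV1.5_RD replicate 4. Arntl, the activator BMAL1, was low, at 0.863 to 3.56 CPM in NaV1.5_HFD atria and 0.805 to 3.77 CPM in NaV1.5_RD atria, and not called, with a log2 difference of 0.23 (SE 0.51, adjusted p = 0.855). Dbp was not called with the GC and length offsets (log2 difference -0.31, adjusted p = 0.174). The sources used here do not give the time of day of collection.

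The clock activators bind the E-box CACGTG. It stood in 7.15% of all windows and in 11.3% of the 11608 tested genes with a window. Ciart holds 3 copies and Dbp none in this window, and neither holds the D-box TTATGNAA (3.38% of windows) or the ROR element, AA, any base and TAGGTCA (0.219%). The Ciart stretch is shown, in the frame used above with the E-box in capitals, because Ciart had the smallest p among genes that fell.
Ciart: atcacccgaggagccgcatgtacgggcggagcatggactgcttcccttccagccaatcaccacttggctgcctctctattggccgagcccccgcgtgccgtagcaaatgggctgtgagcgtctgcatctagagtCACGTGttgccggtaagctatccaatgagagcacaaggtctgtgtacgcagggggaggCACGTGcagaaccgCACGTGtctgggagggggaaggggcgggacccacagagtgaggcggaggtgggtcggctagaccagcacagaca
It is chr3:95882199-95882478, minus strand, and the matches begin 116, 58 and 44 bases before the start site.

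Genes of the heart muscle cell moved in both directions. Slc8a1, the sodium-calcium exchanger that clears calcium from the cell after each beat, was the 1 gene called among 23 of calcium cycling. It had 268, 316, 344, 253 and 284 CPM in NaV1.5_HFD atria, against 220.1, 192, 162 and 196 CPM in NaV1.5_RD atria, a log2 difference of 0.61 (SE 0.10, adjusted p = 0.0133), without overlap. Xirp2, an actin-binding protein of the intercalated disc and Z-disc, was the 1 called among 20 Z-disc and load genes. It had 199, 198, 185, 161 and 206 CPM in NaV1.5_HFD atria, against 128, 141, 124 and 130.2 CPM in NaV1.5_RD atria, a log2 difference of 0.54 (SE 0.09, adjusted p = 0.0112), without overlap either. Fhl2, a titin-binding LIM protein, was at 516 ± 74.2 CPM in NaV1.5_HFD atria (SD, n = 5) and 353 ± 90.9 CPM in NaV1.5_RD atria (n = 4) and a log2 difference of 0.55 (SE 0.13, adjusted p = 0.0516); it was called without NaV1.5_RD replicate 4. Dmd, the dystrophin that ties actin to the membrane, had 64.4, 75.6, 73.5, 54.7 and 54.9 CPM in NaV1.5_HFD atria, against 46.4, 45.4, 39.6 and 48.3 CPM in NaV1.5_RD atria, a log2 difference of 0.52 (SE 0.10, adjusted p = 0.0225). Cavin4, a muscle coat protein of caveolae, had 22.6, 32.5, 45.7, 22.7 and 38.3 CPM in NaV1.5_HFD atria, against 19.1, 20.7, 17.9 and 21.2 CPM in NaV1.5_RD atria, a log2 difference of 0.71 (SE 0.17, adjusted p = 0.0444). Dmd and Cavin4 each rose, with separate ranges, but neither was called with the GC and length offsets (adjusted p = 0.0795 for Dmd and 0.0769 for Cavin4).

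Nppa, the atrial natriuretic peptide and the most typical product of the atrial muscle cell, fell. It had 15878, 15545, 14707, 16779.6 and 15814 CPM in NaV1.5_HFD atria, against 23898, 20918, 19588 and 20851 CPM in NaV1.5_RD atria, a log2 difference of -0.44 (SE 0.09, adjusted p = 0.0279), and all NaV1.5_HFD libraries lay below all NaV1.5_RD libraries. In bulk tissue, fewer cells of a type and less RNA per cell cannot be told apart. Nppa was the 1 called of 6 tested natriuretic genes, and Nppb, its ventricular relative, was at 510.4 ± 152 CPM in NaV1.5_HFD atria (SD, n = 5) and 628 ± 227 CPM in NaV1.5_RD atria (n = 4), with a log2 difference of -0.30 (SE 0.28, adjusted p = 0.607). Nppa was not called with the GC and length offsets (adjusted p = 0.173). The 7 atrial muscle markers, which include Nppa, summed to 63863 to 70872 CPM in NaV1.5_HFD libraries and 75240.5 to 81587 CPM in NaV1.5_RD libraries, and 1 of the 7 was called. Tcap, a titin cap of the Z-disc named after its values were seen, fell by 0.45 log2 units (SE 0.10, adjusted p = 0.0418). Tnni1, the slow skeletal troponin I that the heart carries before birth, had 4.99, 2.996, 1.73, 3.70 and 4.97 CPM in NaV1.5_HFD atria, against 8.84, 6.12, 7.92 and 14.8 CPM in NaV1.5_RD atria, a log2 difference of -1.35 (SE 0.29, adjusted p = 0.0353). Neither Tcap (log2 difference -0.25, adjusted p = 0.213) nor Tnni1 (0.0678) was called with the GC and length offsets. Of 13 sarcomere genes 0 were called with edgeR, 2 with DESeq2 and 2 with limma-voom, while 3 had an unadjusted edgeR p below 0.05. Ventricular muscle markers summed to 225 to 610.01 CPM in NaV1.5_HFD libraries and 390.3 to 828 CPM in NaV1.5_RD libraries. Skeletal muscle markers summed to 599.8 to 743 CPM in NaV1.5_HFD libraries and 629 to 851 CPM in NaV1.5_RD libraries, with 0 called in either list. All 5 tested ventricular markers had negative log2 differences, at a median of -0.84, and 2 had an unadjusted edgeR p below 0.05. Their median was -0.71 without NaV1.5_RD replicate 4 and -0.11 in control atria. All 5 tested skeletal muscle markers were negative too, at a median of -0.14. What part ventricular tissue has in these falls was not tested.

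The record named flag in the count files had 0 counts in all 9 libraries, where 3 counts correspond to 0.135 to 0.196 CPM. Of 21 tested potassium channel genes 0 were called with edgeR, 2 with DESeq2 and 4 with limma-voom, while 7 had an unadjusted edgeR p below 0.05, and 3 fell without NaV1.5_RD replicate 4. Of 12 tested genes of connexins and the intercalated disc 0 were called with edgeR, 1 with DESeq2 and 2 with limma-voom, while 3 had an unadjusted edgeR p below 0.05.

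Several detoxifying and sulfur genes fell, and so did a prostaglandin synthase. Of 18 tested glutathione transferases, which couple glutathione to reactive compounds, 3 fell and 0 rose (median -0.17). Gstm1 had 343, 291, 301, 312 and 284 CPM in NaV1.5_HFD atria, against 387, 442, 429.5 and 401 CPM in NaV1.5_RD atria, a log2 difference of -0.44 (SE 0.08, adjusted p = 0.0196). Gstp1 had 75.1, 65.6, 70.1, 77.5 and 73.9 CPM in NaV1.5_HFD atria, against 91.2, 89.9, 95.2 and 101 CPM in NaV1.5_RD atria, a log2 difference of -0.38 (SE 0.07, adjusted p = 0.0178). Gstm7 fell by 0.39 log2 units (SE 0.09, adjusted p = 0.0493). In all 3 the diets occupied separate ranges, yet only Gstm1 was called with the GC and length offsets (adjusted p = 0.0713 for Gstp1, at a log2 difference of -0.26, and 0.133 for Gstm7). Members of this family are close in sequence, so their counts are uncertain. Mpst, which makes hydrogen sulfide from mercaptopyruvate, was the 1 called of 8 sulfur genes, with 24.01, 21.3, 22.3, 27.3 and 20.5 CPM in NaV1.5_HFD atria, against 29.6, 32.8, 34.2 and 41.2 CPM in NaV1.5_RD atria, a log2 difference of -0.58 (SE 0.10, adjusted p = 0.0147). Selenbp1, an oxidase of methanethiol, had 207, 151, 162, 189 and 184 CPM in NaV1.5_HFD atria, against 223, 249, 249.9 and 291 CPM in NaV1.5_RD atria, a log2 difference of -0.50 (SE 0.09, adjusted p = 0.0216). Mpst was called again with the GC and length offsets and Selenbp1 was not (adjusted p = 0.0644). Of 24 antioxidant enzymes 0 were called with edgeR, 1 with DESeq2 and 4 with limma-voom, while 2 had an unadjusted edgeR p below 0.05.

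Ptgds, the lipocalin-type prostaglandin D synthase, had 12.9, 6.39, 5.70, 8.53 and 7.03 CPM in NaV1.5_HFD atria, against 13.96, 24.5, 28.9 and 32.99 CPM in NaV1.5_RD atria, a log2 difference of -1.62 (SE 0.26, adjusted p = 0.0178). It was the 1 called of 9 prostaglandin synthases, and its NaV1.5_HFD replicate 1 lay just below its NaV1.5_RD replicate 1. Acy3, an aminoacylase that removes acetyl groups from mercapturates, had 67.3, 51.4, 49.1, 75.2 and 66.7 CPM in NaV1.5_HFD atria, against 111, 110.4, 117 and 88.2 CPM in NaV1.5_RD atria, a log2 difference of -0.78 (SE 0.12, adjusted p = 0.00833). Grhpr, which reduces glyoxylate, fell by 0.66 log2 units (SE 0.12, adjusted p = 0.0216). The pair of 10-formyltetrahydrofolate dehydrogenases, named after their values were seen, parted: cytosolic Aldh1l1 fell, with 1.88 to 2.42 CPM in NaV1.5_HFD atria and 3.11 to 4.76 CPM in NaV1.5_RD atria and a log2 difference of -0.88 (SE 0.17, adjusted p = 0.0258), and mitochondrial Aldh1l2 rose, with 7.31 to 11.6 CPM in NaV1.5_HFD atria and 5.42 to 7.003 CPM in NaV1.5_RD atria and a log2 difference of 0.62 (SE 0.15, adjusted p = 0.0479). Ptgds and Acy3 were called again with these offsets, while Grhpr (adjusted p = 0.0711), Aldh1l1 (0.0669) and Aldh1l2 (0.0795) were not.

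Several of the largest remaining differences were in signalling genes of low level. Gng7 and Gnb3, gamma and beta subunits of heterotrimeric G proteins, both fell. Gng7 had 0.998, 0.447, 0.345, 0.379 and 0.753 CPM in NaV1.5_HFD atria, against 1.89, 1.93, 1.85 and 1.92 CPM in NaV1.5_RD atria, a log2 difference of -1.69 (SE 0.32, adjusted p = 0.0216), and Gnb3 had 2.52, 2.28, 1.84, 2.37 and 3.31 CPM in NaV1.5_HFD atria, against 4.44, 6.12, 5.83 and 4.88 CPM in NaV1.5_RD atria, a log2 difference of -1.10 (SE 0.18, adjusted p = 0.0112). Both were low in every library, with no overlap between diets. Of 18 tested genes of adrenergic and muscarinic signalling Gnb3 was the 1 called. The phosphatase Dusp26 fell by 1.35 log2 units (SE 0.29, adjusted p = 0.0317), and the secretoglobin Scgb1c1 by 1.23 log2 units (SE 0.27, adjusted p = 0.0318). The linker histone H1f10 fell by 1.39 log2 units (SE 0.26, adjusted p = 0.0203). The S6 kinase family member Rps6ka6 rose by 0.83 log2 units (SE 0.19, adjusted p = 0.0431). The integrin subunit Itgb6, which pairs in an activator of TGF-beta, rose by 0.74 log2 units (SE 0.15, adjusted p = 0.0289). The thyroid hormone receptor Thra and the AMPK subunit Prkag2, named after their values were seen, fell by 0.42 log2 units (SE 0.08, adjusted p = 0.0258) and 0.49 log2 units (SE 0.11, adjusted p = 0.0317). Gng7, Gnb3, H1f10 and Prkag2 were called again with the GC and length offsets. Dusp26 (adjusted p = 0.0795), Scgb1c1 (0.0508), Rps6ka6 (0.117) and Itgb6 (0.0649) were not, nor was Thra, whose log2 difference became -0.24 (adjusted p = 0.142).

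Among the genes with the smallest p were further ones of varied role. Lad1, an anchoring-filament protein of epithelia, had 56.01, 48.96, 53.3, 44.5 and 46.5 CPM in NaV1.5_HFD atria, against 75.4, 68.1, 81.7 and 90.9 CPM in NaV1.5_RD atria, a log2 difference of -0.66 (SE 0.11, adjusted p = 0.0123). The heparin-binding growth factor Mdk had 13.6, 14.3, 13.9, 16.02 and 10.9 CPM in NaV1.5_HFD atria, against 23.9, 22.2, 22.1 and 23.9 CPM in NaV1.5_RD atria, a log2 difference of -0.74 (SE 0.14, adjusted p = 0.0203). The glutamate transporter Slc1a7 had 14.4, 9.66, 8.74, 11.8 and 12.6 CPM in NaV1.5_HFD atria, against 18.4, 17.9, 21.6 and 20.8 CPM in NaV1.5_RD atria, a log2 difference of -0.78 (SE 0.13, adjusted p = 0.0124). In these 3 genes, all lower on the high-fat diet, the ranges were apart. The transcription regulators Hes6 and Cited1 fell by 0.49 log2 units (SE 0.09, adjusted p = 0.0196) and 0.77 log2 units (SE 0.15, adjusted p = 0.0225), the microtubule-binding Eml2 by 0.41 log2 units (SE 0.08, adjusted p = 0.0203), and Wfikkn2, which binds myostatin, by 0.67 log2 units (SE 0.12, adjusted p = 0.0203). The nucleolar helicase Ddx21 rose by 0.40 log2 units (SE 0.08, adjusted p = 0.0225), and Fgd4, an exchange factor for CDC42, by 0.53 log2 units (SE 0.11, adjusted p = 0.0273). Of 20 splicing and RNA-processing genes 1 rose and 1 fell. The splicing factor Sugp1 fell by 0.47 log2 units (SE 0.08, adjusted p = 0.0124), with 26.1 ± 2.09 CPM in NaV1.5_HFD atria (SD, n = 5) and 36.2 ± 1.10 CPM in NaV1.5_RD atria (n = 4), and Hnrnph1 rose by 0.38 log2 units (SE 0.08, adjusted p = 0.0365), with 105 ± 11.4 CPM in NaV1.5_HFD atria (SD, n = 5) and 81.01 ± 7.43 CPM in NaV1.5_RD atria (n = 4). Mdk, Slc1a7, Wfikkn2, Ddx21 and Sugp1 were called again with the GC and length offsets. Lad1 (adjusted p = 0.11), Hes6 (0.083) and Cited1 (0.0805) were not, at log2 differences of -0.50, -0.30 and -0.58 in that order. Eml2 moved to -0.22 (adjusted p = 0.197), Fgd4 to 0.33 (adjusted p = 0.155) and Hnrnph1 to 0.18 (adjusted p = 0.211). The median of the splicing list was 0.09, and with the offsets it was -0.06.

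Protein turnover and immune genes added a few rises. Retreg1, a receptor that feeds ER sheets to autophagy, had 137, 154, 159, 141 and 158 CPM in NaV1.5_HFD atria, against 101, 105, 94.996 and 124 CPM in NaV1.5_RD atria, a log2 difference of 0.50 (SE 0.09, adjusted p = 0.0196). Xiap, a ubiquitin ligase that blocks caspases, had 31.6, 33.4, 35.4, 28.6 and 28.8 CPM in NaV1.5_HFD atria, against 25.2, 22.1, 22.8 and 23.2 CPM in NaV1.5_RD atria, a log2 difference of 0.44 (SE 0.08, adjusted p = 0.0216). These were the 2 called of 19 ubiquitin, proteasome and autophagy genes. Tank, a regulator of TRAF and TBK1 signalling, had 11.5, 13.4, 14.2, 12.3 and 11.5 CPM in NaV1.5_HFD atria, against 9.47, 7.62, 8.63 and 9.48 CPM in NaV1.5_RD atria, a log2 difference of 0.52 (SE 0.10, adjusted p = 0.0203), and was the 1 called of 17 tested inflammasome and cytokine genes. All of these formed separate ranges. Retreg1 was called again with the GC and length offsets, while Xiap moved to a log2 difference of 0.24 (adjusted p = 0.114) and Tank to 0.34 (adjusted p = 0.0953), which left 1 call in the turnover list and 0 in the inflammasome list. Macrophage markers, 11 tested and 0 called, summed to 974 to 1231 CPM in NaV1.5_HFD libraries and 959.5 to 1225 CPM in NaV1.5_RD libraries, and the 7 T and NK cell markers, 0 of them called, to 4.37 to 16.1 CPM in NaV1.5_HFD libraries and 4.98 to 8.27 CPM in NaV1.5_RD libraries. Of 20 interferon response genes 0 were called with edgeR, 5 with DESeq2 and 6 with limma-voom, while 8 had an unadjusted edgeR p below 0.05. All 20 had a positive log2 difference, at a median of 0.32.

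Genes of NAD metabolism, which the wider study addresses with nicotinamide riboside, showed 1 call. Parp14, an enzyme that spends NAD to modify proteins, rose; it had 21.9, 32.6, 30.5, 27.4 and 27.2 CPM in NaV1.5_HFD atria, against 22.1, 19.5, 20.1 and 18.7 CPM in NaV1.5_RD atria, a log2 difference of 0.47 (SE 0.11, adjusted p = 0.0431), and NaV1.5_HFD replicate 1 lay within the NaV1.5_RD range. Of 13 tested NAD-consuming enzymes Parp14 was the 1 called, and with the GC and length offsets it was not (adjusted p = 0.102). The median of these 13 was -0.04, with 5 positive and 8 negative. Of 13 tested NAD synthesis genes 0 were called with edgeR, 1 with DESeq2 and 1 with limma-voom, while 2 had an unadjusted edgeR p below 0.05. Nmrk2, the muscle kinase that salvages nicotinamide riboside, had 18.9, 30.6, 27.8, 12.9 and 15.1 CPM in NaV1.5_HFD atria, against 9.61, 8.80, 10.1 and 10.9 CPM in NaV1.5_RD atria, without overlap, and a log2 difference of 1.10 (SE 0.26, adjusted p = 0.0538); it was called without NaV1.5_RD replicate 4 (adjusted p = 0.0452). Nampt, the rate-limiting enzyme of the nicotinamide route, was at 75.01 ± 13.03 CPM in NaV1.5_HFD atria (SD, n = 5) and 64.4 ± 17.03 CPM in NaV1.5_RD atria (n = 4), with a log2 difference of 0.22 (SE 0.15, adjusted p = 0.456).

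In all, 39 of the 182 called genes stood in a list, and 47 of the 70 lists held 0 called members. Those 47 lists hold 589 tested genes outside the called ones, of which 107 had an unadjusted p below 0.05, DESeq2 called 25 and limma-voom 70. Among them were the nuclear genes of the respiratory chain (36 of complex I and 33 of complexes III to V), 17 of the citric acid cycle, 16 of mitochondrial biogenesis and dynamics, 24 of cell division, 24 immediate early genes, 12 glucocorticoid targets and 50 cytosolic ribosomal proteins. Without NaV1.5_RD replicate 4, 4 genes of complexes III to V, 1 of complex I and 3 epicardial markers rose. That leave-out also gave 2 rises each in the interferon and antioxidant lists and 2 falls each in the cholesterol and glucose lists. It moved the median log2 difference of complex I from 0.017 to 0.22 and that of the ribosomal proteins from -0.018 to 0.27. A list without a call does not show that its genes are unchanged: in simulated counts for this comparison 60% of genes changed by 1.5-fold and 86% changed by 2-fold were recovered. The simulation left genes of low level unchanged and drew each library independently, with no outlying library and no trend with GC content. Its shares need not hold for the real libraries. Red cell markers, 6 tested and 0 called, summed to 864 to 2915 CPM in NaV1.5_HFD libraries and 416 to 2640.1 CPM in NaV1.5_RD libraries. The sums were 1006 to 1401 CPM in NaV1.5_HFD libraries and 1102 to 1332 CPM in NaV1.5_RD libraries for 7 endothelial markers, 503 to 678 CPM in NaV1.5_HFD libraries and 305 to 734 CPM in NaV1.5_RD libraries for 9 epicardial markers and 365 to 475 CPM in NaV1.5_HFD libraries and 341 to 464 CPM in NaV1.5_RD libraries for 7 markers of smooth muscle and pericytes, with 0 called in each list.

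In control atria the same diet gave these genes differences of the same sign and mostly smaller size. Of the 182 called genes, 180 (98.9%) had the same sign in Ctrl_HFD against Ctrl_RD, as did 70.5% of all tested genes. The exceptions were Zfp661 and 2310026L22Rik, both named after their values were seen. Genes that rose in NaV1.5 atria had a median log2 difference of 0.469 there and 0.27 in control atria, and genes that fell had one of -0.458 in NaV1.5 atria and -0.256 in control atria. Since the genes were chosen for their size in NaV1.5 atria, a smaller value in control atria follows in part from that choice. The slope of expression with GC content moved with the diet in control atria too. It was -0.107 to -0.00507 log2 units per 10% GC in Ctrl_HFD and 0.0141 to 0.168 in Ctrl_RD. What part this slope has in the agreement of signs was not tested. In control atria 0 of 16168 genes were called with edgeR; 1372 (8.49%) had an unadjusted p below 0.05, 113 of them among the 182 with the same sign, and DESeq2 called 14 and limma-voom 75. The control contrast rests on 3 Ctrl_HFD libraries, since the batch term absorbs the only one of batch 2.

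Whether the diet response differed between the genotypes was tested as an interaction in the same fit. With edgeR 0 of 16168 genes passed (smallest adjusted p = 1.0), DESeq2 and limma-voom also called 0, and 366 (2.26%) had an unadjusted p below 0.05. Of the 182 called genes 27 (14.8%) did, and this share too follows in part from how they were chosen. So no gene of the NaV1.5 response was shown to be particular to the transgenic atria. Ciart, at -0.999 in NaV1.5 atria and -0.37 in control atria, had an interaction of -0.63 (unadjusted p = 0.00805). Hsp90aa1, at 1.13 in NaV1.5 atria and 0.69 in control atria, had one of 0.44 (unadjusted p = 0.117), and Cd36, at 0.52 in NaV1.5 atria and 0.42 in control atria, one of 0.10 (unadjusted p = 0.477). The 5 genes with the smallest interaction p were Gm44751, Zpbp, Gm10603, Gm22043 and Gm37607, at unadjusted p from 0.000361 to 0.00161 and at most 3.47 CPM in any of the 9 NaV1.5 libraries.

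**Figure D5:**
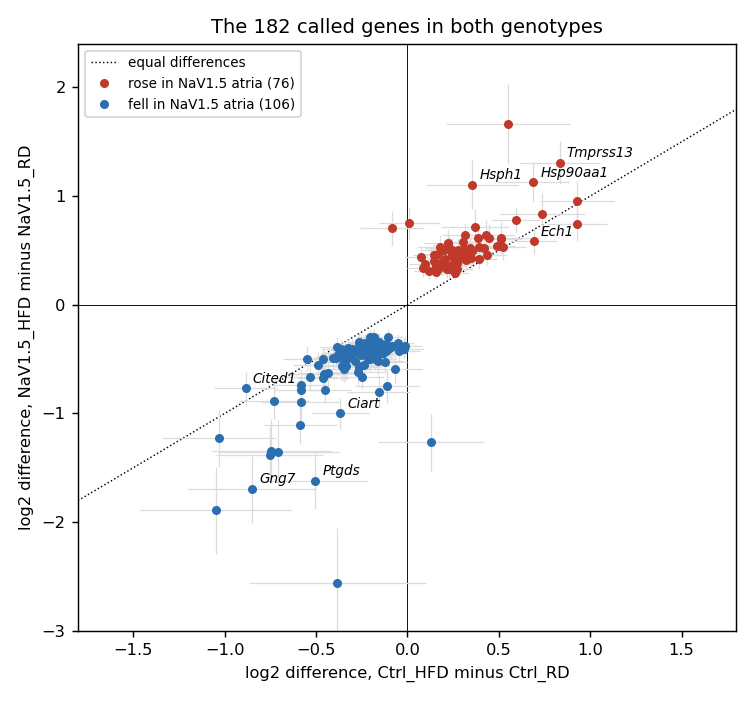
Log2 difference of NaV1.5_HFD minus NaV1.5_RD (y axis) against that of Ctrl_HFD minus Ctrl_RD (x axis) for the 182 genes called in NaV1.5 atria, with bars of 1 SE and a dotted line of equal differences. The sign is shared by 180 of 182 genes, and 178 lie farther from 0 in NaV1.5 atria.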

How the data were processed

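The authors deposited whole-number counts per gene name, taken over read pairs with featureCounts 2.0.1 on GRCm38 with the GENCODE vM25 annotation, per the file headers, which show the strand option unset. Overlapping genes on opposite strands and near-identical copies are therefore uncertain. STAR 2.7.6a and FastQC 0.11.7 are named in the submitters' processing notes. Per the labels' protocols, at least 500 ng of RNA entered a stranded poly-A selected library preparation. From the deposited counts, edgeR 4.0.16 in R 4.3.3 (quasi-likelihood F-test, robust, filterByExpr, TMM scaling) was run on the 17 libraries of the diet experiment with group and batch as terms. All p-values are 2-sided and adjusted by Benjamini and Hochberg across the 16168 genes that passed the filter; called means an adjusted p below 0.05. The SE printed beside a log2 difference is the size of that difference over the root of its F statistic. Ctrl_HFD replicate 4, the only library outside batch 1, is absorbed by the batch term.

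CPM values are counts scaled by library total and TMM factor. GC content and biotype came from GENCODE vM21 (98.3% of tested genes matched), and promoters from RefSeq on GRCm38.p6. The principal components are those of log2 CPM, to which a prior count of 2 was added. The fit was tested on simulated data for 15998 genes. Alternatives were DESeq2 1.42.0, DESeq2 size factors, limma-voom of limma 3.58.1, 2 other filters, GC and length offsets, leaving out mitochondrial genes, NaV1.5 libraries alone, the replicate number as a block and each library left out. The limma-voom fit used a quality weight for each library, which gives outlying libraries less weight. The block, the leave-outs of control libraries and the fit of the same 8 libraries without the block are explained in the closing section.

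The comparison, gene lists and tests were chosen with earlier results of these data known. The text names the 20 genes of smallest p in each direction, the 8 with the largest difference in each direction at a mean of at least 1 CPM, called members of each list with up to 4 further members of smallest p, 5 genes of the interaction, cell type markers and the flag record. A few genes covered by this rule are not reported here. Hspa1a, Hspa1b and Nampt, and those said to be so in the text, were named after their values were seen. No library pair was identical. Python 3.11.15, pandas 2.3.3 and matplotlib 3.10.9 were used for reading and drawing.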

Additional observations from a re-analysis of the deposited data

Results flagged for a closer look

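In 10 of 192 groups of values checked, 1 library lay far from the rest of its group, where chance gives about 9.6 (1 in 20). Among NaV1.5_HFD libraries, replicate 4 was lowest in Ahsa1 at 116 CPM against 135 to 141 CPM in the others. It was also lowest in Hspa4l at 48.5 CPM against 60.1 to 62.7 CPM, and highest in Hspa1a at 2.75 CPM against 1.04 to 1.41 CPM. Replicate 1 of the same group was highest in Ech1 at 1340 CPM, with the others at 1090 to 1150 CPM. It was lowest in Plin2 at 41.8 CPM against 46.1 to 47.4 CPM, and in Sfrp1 at 25.4 CPM against 32.0 to 33.2 CPM. NaV1.5_HFD replicate 5 was highest in Cited1, at 12.4 CPM against 7.47 to 8.77 CPM.

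Among NaV1.5_RD libraries, replicate 1 was lowest in Hspa1b at 1.3 CPM against 1.99 to 2.09 CPM, and highest in the clock gene Arntl at 3.77 CPM against 0.805 to 1.31 CPM. Replicate 2 was lowest in Rps6ka6, at 2.47 CPM against 3.21 to 3.28 CPM.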

How the results depend on the processing

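The number of genes changed by the diet in NaV1.5 atria was 182 (76 rose, 106 fell), and it depended on the libraries and the tool more than on scaling or filters. DESeq2 called 828 (374 rose, 454 fell) and limma-voom 1950 (851 rose, 1099 fell). GC and length offsets gave 62 (29 rose, 33 fell) and the NaV1.5 libraries alone 5 (2 rose, 3 fell). The limma-voom fit gave outlying libraries less weight, so its counts differ from those of edgeR by more than the test. Its median log2 difference of the ribosomal proteins was 0.22, against 0.27 without NaV1.5_RD replicate 4 and -0.018 in the main fit. Leaving out 1 NaV1.5 library gave 4 to 1138 genes (3 to 538 rose, 1 to 600 fell). Among control libraries, added after seeing the data, the count was 118 without Ctrl_HFD replicate 2 and 112 without Ctrl_RD replicate 1. Replicate numbers 1 to 3 are shared by the diets, but libraries of the same number did not deviate together (correlations of -0.123, -0.131 and -0.108). These deviations are from group means that include NaV1.5_RD replicate 4, so they cannot show whether the numbers carry a pairing. The replicate number was fitted as a block on the 8 NaV1.5 libraries with a number in the title, which leaves out NaV1.5_RD replicate 4. The count was 2040 (996 rose, 1044 fell), with 148 of the 182 among them. In that fit NaV1.5_HFD replicates 4 and 5 have no NaV1.5_RD library of their number, so the block terms absorb them. Its contrast therefore rests on replicates 1 to 3 of each diet. The same 8 libraries without the block, added after seeing the data, gave 1419 (659 rose, 760 fell). That count does use NaV1.5_HFD replicates 4 and 5. In control atria, where edgeR called 0, leaving out the low-count filter gave 5 genes, DESeq2 14, limma-voom 75 and a fit with no batch term, also added after seeing the data, 1. Depth limits the genes of a few CPM, and 3 counts correspond to 0.135 to 0.196 CPM.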
